A study of Mus musculus with 8 samples.

Results

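The collagen genes expressed in the skeletal muscle of immobilized mice given K14Q MOTS-c were analyzed. All genes with a symbol of the form Col, a type number, a and a chain number in the GRCm38 annotation were taken, which gave 44 of the 55487 genes in the deposited table. The rule reads symbols only, although it was set with earlier results of these data known. Poly-adenylated RNA was sequenced from 8 C57BL/6J males, 10 weeks old, whose hindlimbs had been held in casts for 8 days. All 8 mice received the K14Q form of MOTS-c, a short peptide encoded in the mitochondrial genome, at 15 mg/kg/day by intraperitoneal injection, given 2 times per day. The sample labels name vastus lateralis as the tissue, whereas the design text and the methods name gastrocnemius. Libraries of untreated, non-immobilized or WT MOTS-c treated mice were not analysed here, so no effect of casting or of the peptide could be tested. The comparisons were made among the chains, among their structural classes and among the 8 mice.

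Collagens are extracellular matrix proteins that share a helix wound from 3 alpha chains, and each chain has its own gene. Fibrillar collagens assemble into the banded fibers that carry tension, basement membrane collagens of type IV form the sheet around each muscle fiber and vessel, and FACIT collagens (fibril-associated collagens with interrupted triple helices) sit on the surface of fibrils. Network-forming collagens build hexagonal lattices, beaded filament collagens of type VI link the fiber surface to the matrix, multiplexins associate with basement membranes, and the anchoring fibril collagen of type VII ties a basement membrane to the stroma beneath it. In muscle, most collagen is made by fibroblasts of the connective tissue sheaths and by tendon cells, and vascular cells make much of the type IV collagen.

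The members fell into 11 fibrillar, 6 basement membrane, 9 FACIT, 3 network-forming, 2 multiplexin, 6 beaded filament, 4 transmembrane, 1 anchoring fibril and 2 other chains. The minimum used for the tests, a mean over the 8 mice of 10 normalized counts, was reached by 34 of the 44 members, and the other 10 are described below as barely detected. Exon bases shared with another gene were found in 13 members, with at most 6.07% of the exon length shared (Col9a3). The use of strand in counting is not given in the sources used here, so reads from overlapping genes could not be told apart.

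The sequence just upstream of the annotated start is given for the chains whose levels are described most fully below, since these chains differ in class and in spread. All were taken from RefSeq on GRCm38.p6 and are written 5′ to 3′ on the strand of the gene. Capitals mark a match to a promoter motif, and each motif was searched on both strands. No marked matches overlap in the printed sequences. The TATA box, which can place the start of transcription, was searched as TATAAA at any position. The CCAAT box, bound by the factor NF-Y, was searched by the letters of its name. The GC box, bound by factors of the Sp family, was searched as GGGCGG. Col3a1 (chr1:45311388-45311537, plus strand) is a fibrillar chain, Col8a1 (chr16:57754738-57754887, minus strand) a network-forming chain and Col7a1 (chr9:108953436-108953585, plus strand) the anchoring fibril chain. Col19a1 (chr1:24587473-24587587, minus strand) is a FACIT chain, and the last sequence is the whole interval between the starts of Col4a4 and Col4a3 (chr1:82586850-82586920, written on the minus strand, that of Col4a4), basement membrane genes transcribed away from each other.
Col3a1: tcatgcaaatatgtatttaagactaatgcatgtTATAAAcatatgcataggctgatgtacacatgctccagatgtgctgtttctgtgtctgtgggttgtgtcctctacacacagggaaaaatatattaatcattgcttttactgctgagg
Col8a1: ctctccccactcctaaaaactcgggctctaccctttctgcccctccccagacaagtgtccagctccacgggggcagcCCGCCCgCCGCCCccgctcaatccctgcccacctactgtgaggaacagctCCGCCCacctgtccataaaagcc
Col7a1: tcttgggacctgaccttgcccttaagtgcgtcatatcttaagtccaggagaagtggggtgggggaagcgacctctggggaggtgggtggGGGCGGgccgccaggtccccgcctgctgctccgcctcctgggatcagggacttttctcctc
Col19a1: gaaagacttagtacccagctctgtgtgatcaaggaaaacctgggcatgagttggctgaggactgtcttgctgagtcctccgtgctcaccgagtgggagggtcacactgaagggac
Col4a4 to Col4a3: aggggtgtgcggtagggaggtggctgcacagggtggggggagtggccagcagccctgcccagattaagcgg

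The Col3a1 sequence held 1 TATA box and no GC box, the Col8a1 sequence held 3 GC boxes and the Col7a1 sequence 1, while the Col19a1 sequence and the 71 bases between Col4a4 and Col4a3 held none of the motifs. A RefSeq promoter window was found for 35 of the 44 members. In the 250 bases upstream of the start, a GC box was present in 22 of 38 collagen windows and in 32.7% of all 32851 windows. A TATA box was present in 5 of the 38 (all windows, 12.4%) and a CCAAT box in 13 of the 38 (all windows, 33.8%). Matches were accepted at any distance from the start, and the TATAAA of Col3a1 lies toward the far end of its printed sequence. They describe the letters of the windows and not the binding of any factor or the placing of a start.

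The summed level of the 44 genes was 18483 ± 3593 normalized counts (SD, n = 8 mice), or 0.0624% of all normalized counts. The sum was lowest in mouse 8 and highest in mouse 2, a 1.69-fold range. A normalized count is the read count of a gene divided by one size factor per library, and totals of 23985356 to 33012497 counts per mouse stood behind it. In whole muscle, fewer cells of a type and less RNA per cell cannot be told apart. Levels of different chains are compared per kb of exon, where the exon length is the union of all annotated exons.

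Per kb, the most abundant chains were Col3a1 at 302, Col4a1 at 284, Col4a2 at 255, Col1a1 at 237, Col1a2 at 195 and Col6a1 at 167 normalized counts per kb. Col19a1, a FACIT chain, was 7th at 129 and Col7a1 8th at 79.1, ahead of Col5a3 at 78.0 and of every other FACIT, network-forming and multiplexin chain. Col7a1 was above Col5a3 in only 3 of the 8 mice. The order of neighbors was poorly separated: of the 43 adjacent pairs in it, only Col4a1 over Col4a2 kept its order in all 8 mice. The length used also mattered, because with the longest transcript in place of the exon union Col1a2 moved from 5th to 2nd and Col7a1 from 8th to 10th.

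**Figure D1:**
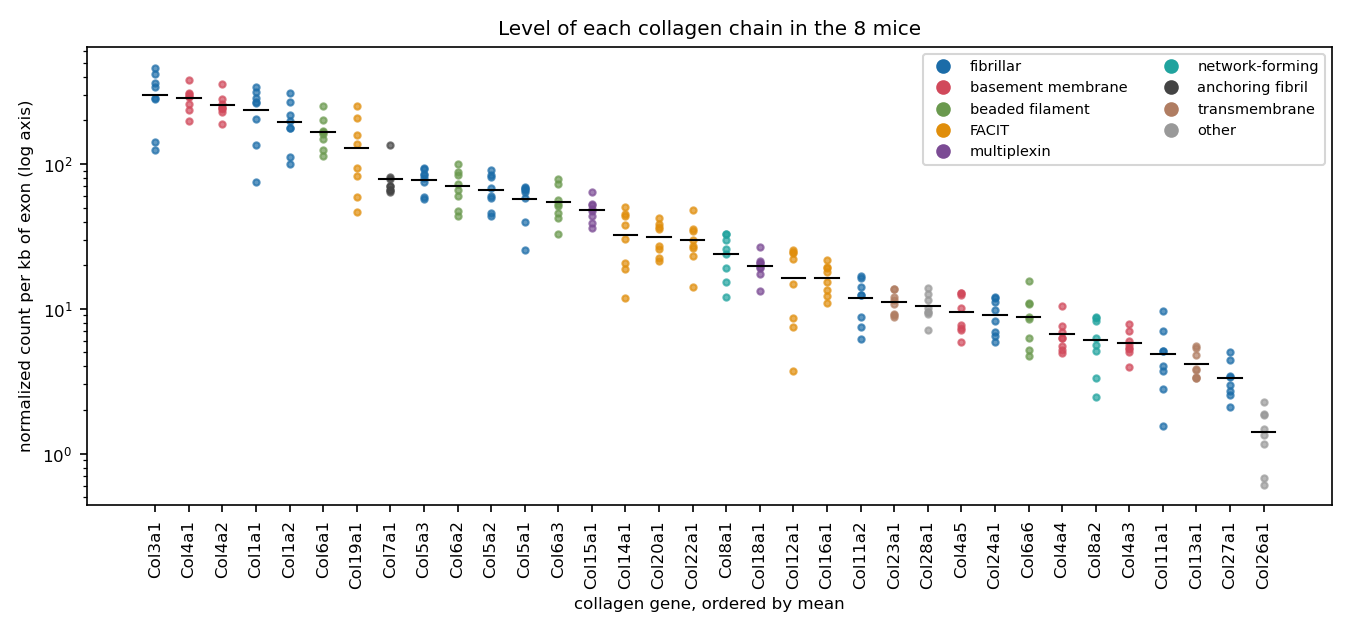
Normalized counts per kb of exon (log axis) of the 34 collagen chains whose mean reached 10 normalized counts, ordered by mean, where each point is 1 of the 8 mice, the bar is the mean and color gives the structural class. Levels span from 302 for Col3a1 to 1.41 for Col26a1, and Col19a1, Col12a1 and Col11a1 have the widest columns of points.

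Among the fibrillar chains, Col1a1, which encodes the major chain of type I collagen, ranged from 497 to 2243 normalized counts with a median of 1752. It was lowest in mouse 3 and next lowest in mouse 8 (894), and the other 6 mice lay at 1344 or above. Col3a1, the chain of the fine fibers of soft connective tissue, ranged from 1230.4 to 4531 with a median of 3073. Col1a2, the partner of Col1a1, ranged from 1252 to 3855. Both were also lowest in mouse 3 and next lowest in mouse 8, with 1392 and 1387 normalized counts in mouse 8. The type V chains that join type I fibers, Col5a1 (218 to 590.3) and Col5a2 (423 to 868), had their lowest values in the same 2 mice.

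Of the minor fibrillar chains, Col11a1 was also lowest in mice 8 and 3, whereas the others had different profiles. Col11a1, which nucleates thin fibrils and is best known from cartilage, ranged from 19.7 in mouse 8 to 122 in mouse 2 with a median of 58.4 normalized counts, a 6.20-fold range. Col11a2, its partner, ranged from 42.2 in mouse 5 to 116 in mouse 2, and was at 112 in mouse 8, where Col11a1 was lowest. Col5a3, a type V chain, ranged only from 391 to 635 with a median of 554, lowest in mice 1 and 2 and highest in mouse 8. The fibrillar chains Col24a1 (44.9 to 92.4, median 68.5) and Col27a1 (27.4 to 65.7, median 41.5) were also high in mouse 8, at 90.9 and 65.7. Mouse 8 was therefore near the bottom for Col1a1, Col3a1 and Col11a1 and at or near the top for Col5a3, Col11a2, Col24a1 and Col27a1. Col2a1, the cartilage chain, had 2 to 12 counts per library.

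The basement membrane pair Col4a1 and Col4a2 was more even between mice. Col4a2 ranged from 1247 to 2359 with a median of 1618 normalized counts and Col4a1 from 1489 to 2818 with a median of 2197. Both were lowest in mouse 8 and highest in mouse 5. Col4a3 and Col4a4, chains of the specialized membranes of kidney and ear that are transcribed from the short interval printed above, were present at 39.6 to 78.6 (median 54.8) and 52.8 to 110.2 (median 67.0) normalized counts. Col4a3 was lowest in mouse 4 and highest in mouse 1, whereas Col4a4 was lowest in mouse 6 and highest in mouse 2. Col4a5 ranged from 39.4 to 86.0 with a median of 59.7 and Col4a6, its head-to-head neighbor on the X chromosome, had 4 to 12 counts per library.

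Among the 34 chains above the minimum, the FACIT class held the most variable. Col19a1, a chain known from developing muscle and nerve, ranged from 323 to 1720 normalized counts with a median of 799. Its values did not follow those of the fibrillar chains: it was highest in mice 4 (1720) and 3 (1427) and lowest in mice 5 (323) and 1 (407), and mouse 3 had the lowest Col1a1. Col12a1, which coats fibrils in tendon and in the muscle sheath, ranged from 56.9 to 386 with a median of 280.4. Mice 8, 7 and 3 were at 132 or below and the other 5 mice at 226 or above. Col14a1, a related fibril coat chain, ranged from 83.2 to 354 with a median of 239.6, and the same 3 mice were lowest.

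Col22a1, a FACIT chain placed at the junction of muscle and tendon, ranged from 130.4 to 444 with a median of 263. Its highest value was in mouse 8, where Col12a1 and Col14a1 were lowest. Col20a1 ranged from 110.4 to 217 with a median of 161 and Col16a1 from 74.4 to 147 with a median of 111.5. Both were highest in mouse 4, while Col20a1 was lowest in mouse 7 and Col16a1 in mouse 8. The cartilage FACIT chains Col9a1, Col9a2 and Col9a3 had at most 12 counts in any library.

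The network-forming chains Col8a1 and Col8a2 are partners in the lattice of vessel walls and the cornea. Col8a1 ranged from 94.1 to 257 with a median of 195 and Col8a2 from 10.9 to 39.1 with a median of 26.7 normalized counts. Both were lowest in mouse 8 and next lowest in mouse 3, but mouse 4 had the highest Col8a1 and a Col8a2 of 23.1, below the median. Col10a1, the network chain of growth plate cartilage, had 0 to 3 counts per library, with 0 counts in 2 of the 8 mice.

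Col7a1, the only anchoring fibril chain, was at 658, 723, 831, 684, 724, 815 and 680.0 normalized counts in mice 1 to 7 and at 1399 in mouse 8. Mouse 8 alone stood apart, and the mean was 814 ± 244 with it (SD, n = 8) and 731 ± 67.4 without it (SD, n = 7). The type VII chain is best known from skin. The skin keratins Krt5 and Krt14 were at 0 counts in all 8 libraries, which allows up to 3 counts in each, and Col17a1, a transmembrane collagen of skin, had 1 to 10 counts. Krt10, the other of the 3 skin markers, was at 6.85 to 16.4 normalized counts and was highest in mouse 8, and the part of skin markers in the level of Col7a1 was not tested. The multiplexins Col15a1 (229 to 409.5, median 305) and Col18a1 (93.0 to 187, median 140.4) were among the most even chains. Col15a1, found at muscle and vessel basement membranes, was highest in mouse 7, and Col18a1, the precursor of endostatin, was highest in mouse 2 and lowest in mouse 8.

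Of the beaded filament chains, Col6a1 (498 to 1102), Col6a2 (367 to 827) and Col6a3 (393 to 936) were each lowest in mouse 8 and highest in mouse 2. Col6a6 ranged from 43.1 in mouse 5 to 143 in mouse 2, with 99.6 in mouse 8. The transmembrane chains Col23a1 (50.4 to 78.9, median 63.6) and Col13a1, which sits at the neuromuscular junction (15.3 to 25.5, median 17.5), varied little. Col28a1, known from peripheral nerve, ranged from 35.2 to 67.9 with a median of 48.0, and Col26a1 from 4.98 to 18.6 with a median of 11.6. The barely detected members were Col2a1, Col4a6, Col6a4, Col6a5, Col9a1, Col9a2, Col9a3, Col10a1, Col17a1 and Col25a1, each with a mean of 8.12 normalized counts or less. Among those not given above, Col6a4 had 0 to 3, Col6a5 1 to 10 and Col25a1 3 to 10 counts per library.

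**Figure D2:**
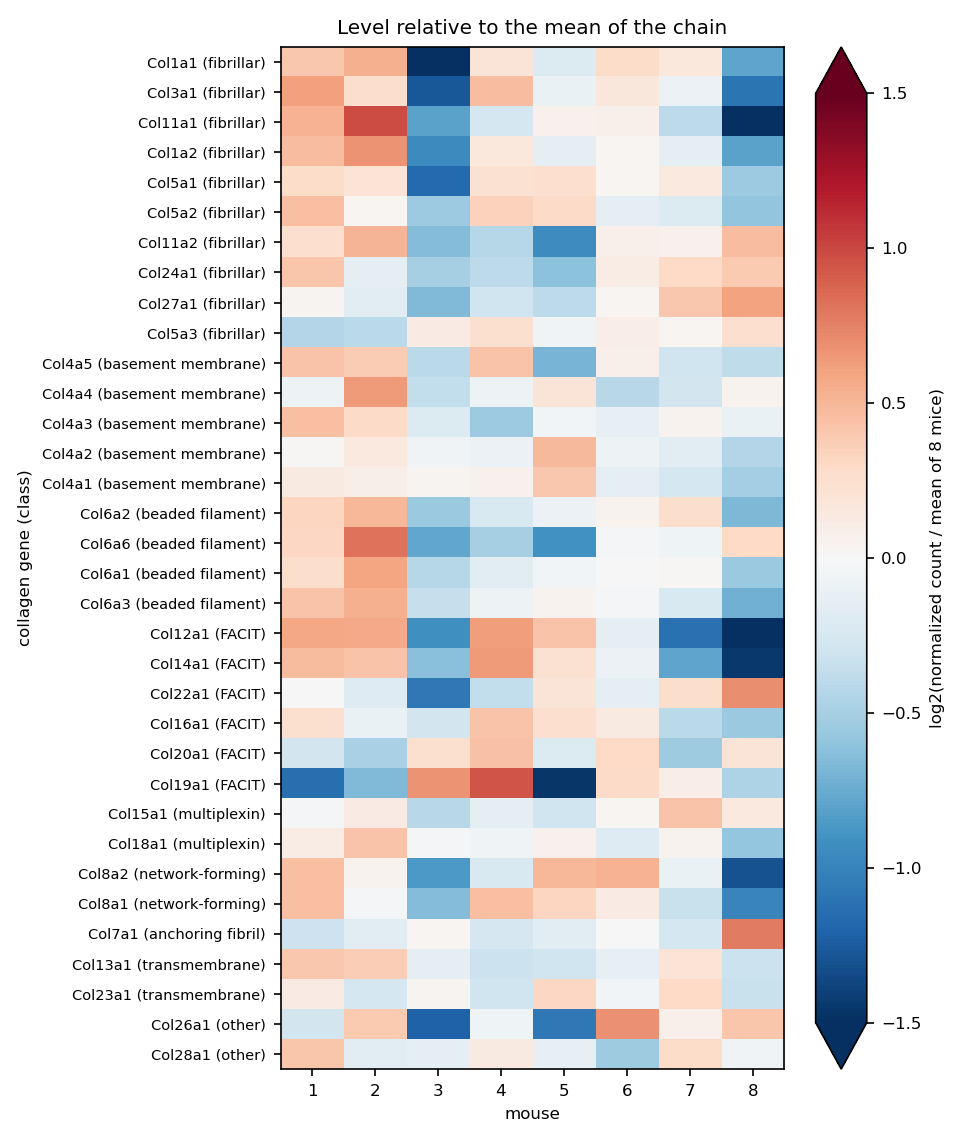
Level of each of the 34 chains in each of the 8 mice as log2 of the normalized count over the mean of that chain, with red above and blue below the mean and chains ordered by class and by slope on Col1a1. Mice 3 and 8 are blue for most fibrillar, FACIT and network-forming chains, while Col7a1, Col22a1 and Col27a1 are red in mouse 8 and Col19a1 is red in mouse 3.

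The classes were then compared by their share of the summed per-kb level. Fibrillar chains took 41.2% ± 6.78 (SD, n = 8 mice), basement membrane chains 24.9% ± 4.54, beaded filament chains 13% ± 1.78, FACIT chains 11.6% ± 3.70, the anchoring fibril chain 3.71% ± 1.94, multiplexins 3.03% ± 0.605 and network-forming chains 1.30% ± 0.271. The fibrillar share ranged from 27.4% in mouse 3 to 48.4% in mouse 1, and it exceeded the basement membrane share in 7 of the 8 mice. In mouse 3 the order was turned, with 32.0% for basement membrane chains. The FACIT share ranged from 7.76% in mouse 1 to 17.5% in mouse 3, and was next highest in mouse 4 (16%). Mice 3 and 4 had the highest Col19a1, which is itself the largest part of this share. Its mean was 129 normalized counts per kb, and the next FACIT chain, Col14a1, was at 32.3. Col7a1 alone made up 8.18% of the summed level in mouse 8 and 2.38% to 4.64% in the other 7 mice. With the longest transcript as length, the fibrillar share was 48.6% and the basement membrane share 20.3% (the exon union is 12426 bases for Col1a2 and 9816 for Col3a1, against 5348 and 5564 for the longest transcript).

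**Figure D3:**
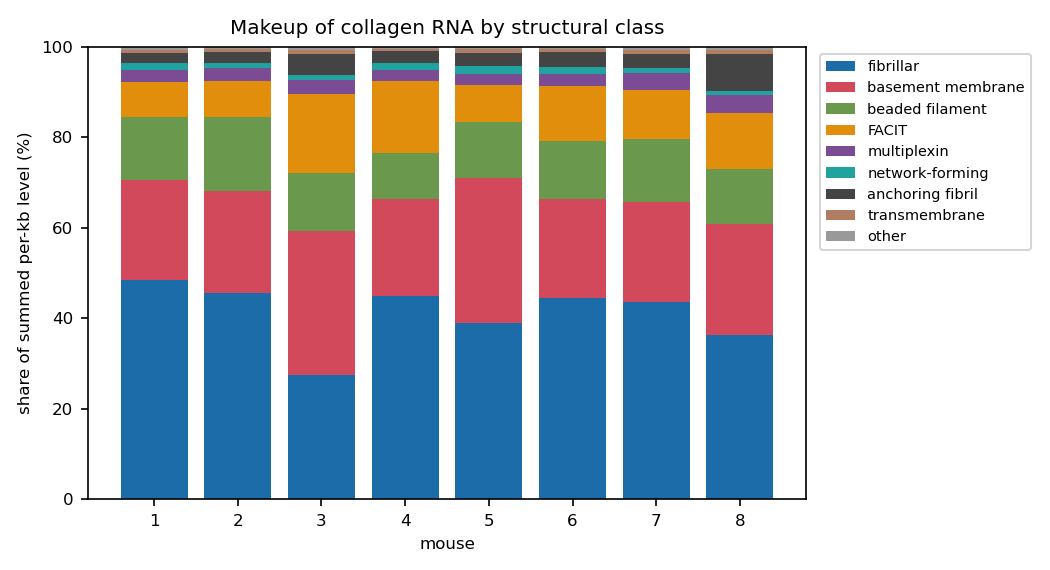
Share of the summed per-kb level (%) taken by each structural class in each of the 8 mice. The fibrillar share is 27.4% in mouse 3 and 48.4% in mouse 1, and the anchoring fibril share (Col7a1) is 8.18% in mouse 8.

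The per-kb ratio of chains that assemble together, or that are the nearest relatives within a class (Col12a1/Col14a1 and Col15a1/Col18a1, which form separate molecules), was computed for the 9 of 12 pairs in which both chains had a mean of at least 10. Col4a2/Col4a1 was 0.900 ± 0.0616 (SD, n = 8 mice) and varied 1.19-fold, although each chain varied 1.89-fold. Col6a1/Col6a2 was 2.41 ± 0.201 and varied 1.31-fold. Col12a1/Col14a1 was 0.476 ± 0.0910 and varied 1.84-fold, whereas Col12a1 itself varied 6.78-fold and Col14a1 4.26-fold. In these pairs the ratio varied less between mice than either chain.

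Some pairs varied as widely as their chains. Col11a1/Col11a2 was 0.443 ± 0.213 and ran from 0.0952 in mouse 8 to 0.833 in mouse 5, an 8.75-fold range that exceeded the 6.20-fold range of Col11a1 and the 2.74-fold range of Col11a2. Col4a3/Col4a4 was 0.899 ± 0.224 and varied 1.99-fold, as widely as either chain alone (1.98-fold and 2.09-fold). Col15a1/Col18a1 was 2.52 ± 0.755 and varied 2.15-fold, more than Col15a1 (1.79-fold) or Col18a1 (2.01-fold). In the remaining pairs the ratio again varied less than either chain. Col8a1/Col8a2 was 4.18 ± 1.09 and varied 2.14-fold (chains, 2.73-fold and 3.58-fold), and Col5a1/Col5a2 was 0.864 ± 0.162 and varied 1.95-fold (chains, 2.71-fold and 2.06-fold). Col1a1/Col1a2 was 1.20 ± 0.227 and varied 1.99-fold (chains, 4.51-fold and 3.08-fold). It was lowest in mouse 3 at 0.751 and above 1 in 7 of 8 mice, but the ratio was 0.570 ± 0.108 when the longest transcript was used as length.

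To see which chains varied with the major fibrillar chain, log2(normalized count + 1) of each of 16512 genes was regressed on that of Col1a1 over the 8 mice with limma, and the slope gives the log2 change per doubling of Col1a1. At an adjusted p of 0.05 no gene passed in limma (0%) or edgeR, and DESeq2 called 5 genes. Without adjustment, 13 of the 33 members tested passed the threshold of 0.05 with a positive slope, where 2.46% of all genes did, and 0 members passed with a negative slope, where 3.38% of all genes did. The median slope of the members was 0.24, beside 0.00 over all genes.

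Col3a1 (slope 0.88 ± 0.12, SE), Col5a1 (0.66 ± 0.10) and Col1a2 (0.71 ± 0.10) had the 3 smallest p-values of all 16512 genes, and each had an adjusted p of 0.149 in limma. In DESeq2 the adjusted p of Col3a1 was 1.16e-07, of Col1a2 6.11e-06 and of Col5a1 1.78e-05. The remaining members with an unadjusted p under the threshold were Col11a1 (slope 0.78) and Col5a2 (0.38) of the fibrillar class, Col12a1 (0.85) and Col14a1 (0.62) of the FACIT class, Col8a2 (0.63) and Col8a1 (0.51) of the network-forming class, Col6a2 (0.48), Col6a1 (0.39) and Col6a3 (0.39) of the beaded filament class, and Col4a5 (0.38). Each of these had an adjusted p of 0.821. Slopes of 0.07 for Col4a1 and 0.09 for Col4a2 did not pass, and neither did the negative slopes of Col5a3 (-0.19), Col20a1 (-0.22), Col7a1 (-0.26) and Col19a1 (-0.32).

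Class by class, the median slope on Col1a1 was 0.57 for the 2 network-forming chains, 0.40 for the 4 beaded filament chains, 0.38 for the 9 fibrillar chains, 0.24 for the 6 FACIT chains, 0.18 for the 2 multiplexins and 0.16 for the 5 basement membrane chains. The FACIT class was the widest, from -0.32 for Col19a1 to 0.85 for Col12a1. Mouse 3 had the most weight in the fit: without it the slopes of Col11a1, Col12a1 and Col14a1 were 1.60, 1.75 and 1.26, that of Col22a1 went from 0.24 to -0.65, that of Col7a1 from -0.26 to -0.71, and that of Col19a1 from -0.32 to 0.27. Without mouse 8, which had the highest Col7a1, the slope of Col7a1 was -0.11 and that of Col22a1 0.45. Over all genes, the number under the unadjusted threshold was 965, and it was 2012 without mouse 3, 421 without mouse 2 and 540.0 without mouse 1. Between 10 and 15 members passed the unadjusted threshold whichever mouse was left out, but the share over all genes moved too. It was 10 members without mouse 2 (all genes, 2.55%) and 15 without mouse 3 (all genes, 12.2%).

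**Figure D4:**
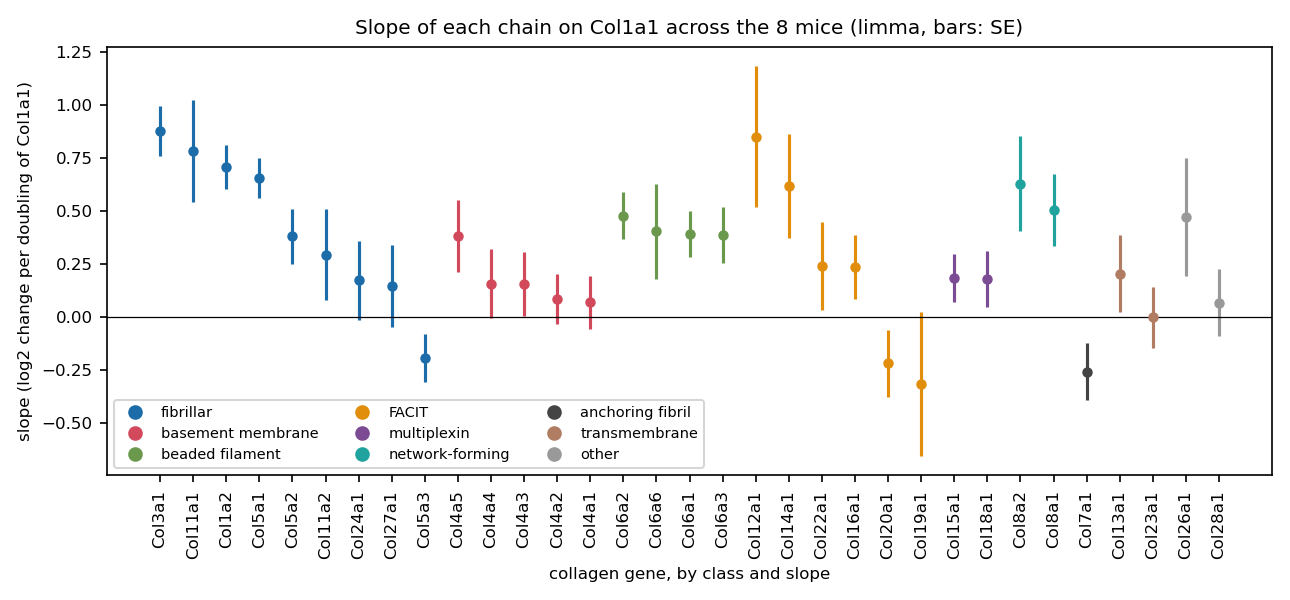
Slope of each of 33 chains on Col1a1 across the 8 mice (log2 change per doubling of Col1a1, limma, bars are SE), grouped by class. Fibrillar, network-forming and beaded filament chains lie mostly above 0.3, Col4a1 and Col4a2 lie near 0, and Col5a3, Col20a1, Col19a1 and Col7a1 lie below 0.

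The same regression was run on the basement membrane chain Col4a2. No gene passed at an adjusted p of 0.05 in limma (0%) or edgeR, DESeq2 called 275 genes, and 2479 genes passed the unadjusted threshold in limma. Of the 33 members, 9 passed it with a positive slope (all genes, 9.08%) and 2 with a negative slope (all genes, 5.93%), so the negative count was close to the background. Col4a1 had a slope of 0.99 ± 0.19 (SE), where a slope of 1 would be change in proportion, with an adjusted p of 0.173 in limma and 0.00174 in DESeq2. Col12a1 (2.80 ± 0.83), Col11a1 (2.01 ± 0.73), Col14a1 (1.84 ± 0.66), Col8a2 (1.67 ± 0.65) and Col8a1 (1.27 ± 0.51) had steeper slopes, and the others with a positive slope were Col6a3 (0.99), Col5a2 (0.90) and Col18a1 (0.74). All of these except Col4a1 and Col18a1 also passed with Col1a1, and both fits use the same 8 mice. The negative ones were Col24a1 (-0.999) and Col7a1 (-0.82).

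These slopes moved with mice 8 and 5, which had the lowest and the highest Col4a2. Without mouse 8, 2 of the 33 members passed the unadjusted threshold in place of 11, where 7.36% of all genes did (1216 genes), so the member count was then at the background. In that fit the slope of Col12a1 was 1.66, that of Col11a1 1.02, that of Col7a1 -0.02 and that of Col4a1 0.86. Without mouse 6, 7 members passed (all genes, 12.8%). When trends on GC content and gene length were removed, 3 of 33 members passed, where 9.29% of all genes did, so the excess of members over the background was no longer present. Without mouse 5 the slopes were steeper, at 4.92 for Col12a1, 4.27 for Col11a1, 3.45 for Col14a1, 1.96 for Col8a1 and -1.66 for Col7a1, and limma called 73 genes at an adjusted p of 0.05.

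Col19a1 was taken as a further covariate after its spread had been seen, because no other chain above the minimum had as large a coefficient of variation (56.0%). No gene passed at an adjusted p of 0.05 in limma (0%) or edgeR, DESeq2 called 103 genes, and limma called 4 without mouse 5 and 4 without mouse 7. Unadjusted, 0 of 33 members had a positive slope past the threshold (all genes, 4.72%) and 1 had a negative slope, Col4a3 at -0.25 (all genes, 2.87%). Both counts were close to or below the background. Slopes were negative for 28 of the 33 members, with a median of -0.13 beside -0.00 over all genes, and the number of members past the unadjusted threshold was 5 without mouse 5 (all genes, 13%) and 6 without mouse 8 (all genes, 10.1%), and 0 without mouse 1, 2, 3 or 6. The genes outside the family with the smallest p-values were Olfml2a, an olfactomedin of the matrix (slope 0.59), Birc3, an inhibitor of apoptosis (0.66), and Adam19, a membrane protease (0.46), each with an adjusted p of 0.117 in limma. Of the 6 skeletal muscle genes, 3 passed the unadjusted threshold with a negative slope, namely Acta1 (-0.26), Myh2 (-0.29) and Myh7 (-0.32). Of the 79 genes of the other lists, 4 passed with a negative slope, namely Pdgfrb, Cspg4, Pax7 and Tnc (all genes, 2.87%). A positive slope passed for 3, namely Mbp, Cd68 and Lama5 (all genes, 4.72%). Scaling by library totals moved the median slope of all genes in this fit from -0.00 to 0.10 and limma then called 22 genes.

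Genes that act on collagen were counted in the same fits. Of 23 tested genes for procollagen processing and crosslinking, 5 passed the unadjusted threshold with a positive slope on Col1a1 (all genes, 2.46%) and 6 on Col4a2 (all genes, 9.08%). The 5 were Sparc (0.25), a collagen-binding matrix protein, Serpinh1 (0.24), the chaperone of procollagen, Plod2 (0.34), a lysyl hydroxylase, and Loxl2 (0.38) and Loxl3 (0.42), lysyl oxidases. The 6 were Pcolce, Pcolce2, Lox, Loxl2, Loxl4 and Adamts2, with slopes of 0.63 to 2.50. Of 9 partners of fibrils, 4 passed with Col1a1, namely Fn1 (0.78), Postn (1.04), Tnc (0.70) and Bgn (0.50), and 5 with Col4a2. Of 10 basement membrane partners, 1 passed with Col1a1, the perlecan gene Hspg2 (0.27), and 6 with Col4a2, namely Lamb1, Lamc1, Lama2, Lama4, Nid1 and Hspg2, with slopes of 0.79 to 1.43. The fibril partners share Dcn, Lum, Fmod and Thbs4 with the fibroblast and tendon markers given next. None of these genes had an adjusted p under 0.05 in limma.

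The levels of cell type markers are given beside these results, and their part in them was not tested. The 6 skeletal muscle genes summed to between 1390630 normalized counts in mouse 3 and 2991520 in mouse 1. The 7 fibroblast markers were all detected, summed to 8717 in mouse 7 and 17188 in mouse 2, and 1 of them (Pi16) passed the unadjusted threshold with Col1a1 (all genes, 2.46%) and 2 (Pdgfra and Mfap5) with Col4a2 (all genes, 9.08%). The 6 tendon markers (Scx, Tnmd, Mkx, Fmod, Thbs4 and Comp) were also all detected and had the widest range, with a sum of 905 in mouse 8 and 6158 in mouse 1. Fmod, a fibril proteoglycan dense in tendon, was 211 in mouse 8 and 2853 in mouse 1, and Thbs4 was 564 in mouse 8 and 3081 in mouse 5. In contrast, Scx, a tendon transcription factor, was highest in mouse 8 at 86.5. Of the 6, Tnmd and Comp passed with Col1a1, and Mkx, Fmod and Thbs4 with Col4a2. Mouse 8 was thus lowest for 5 of the 6 tendon markers. It was also lowest for 15 of the 34 chains above the minimum, among them Col12a1, Col14a1 and Col11a1 but also Col4a1, Col4a2, Col6a1, Col8a1 and Col18a1, and highest for 4, namely Col5a3, Col7a1, Col22a1 and Col27a1. The share of all genes lowest or highest in mouse 8 was not counted, so these counts cannot be called particular to collagens or tendon markers.

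Markers of other cell types had narrower ranges than the tendon markers. The summed levels varied from 3373 to 5096 for 5 endothelial genes, from 7299 to 12116 for 5 mural cell genes, from 941 to 2440 for 4 macrophage genes, from 175 to 655 for 3 adipocyte genes and from 851 to 1284 for 3 satellite cell genes, and each sum was lowest in mouse 8. The 5 Schwann cell genes summed to between 1386 in mouse 5 and 3545 in mouse 7. With Col4a2, 2 of 5 endothelial, 2 of 5 mural, 3 of 4 macrophage and 3 of 3 adipocyte genes passed the unadjusted threshold with a positive slope, where 9.08% of all genes did. With Col1a1 none of these did, where 2.46% of all genes did. The marker counts, with those of fibroblast and tendon, were not repeated without mouse 8, which had the lowest Col4a2. Nor were they repeated with GC content and length trends removed. Of 5 cartilage markers only Sox9 had a mean of at least 10, Acan had 0 to 2 counts per library, and of 4 bone markers only Runx2 reached it, with Sp7 at 0 in all 8 libraries. Sox9, a transcription factor of cartilage, was at 44.3 to 116 normalized counts, while the matrix markers Acan, Matn1, Hapln1 and Cnmd were each at 5.52 or below in every mouse. The part of cartilage markers in the levels of Col11a1 and Col11a2 was not tested.

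The spread between mice was compared with that of other genes of like abundance by the DESeq2 dispersion, the variance beyond counting error, divided by the trend of all 16513 genes. A dispersion at least 2 times the trend was found for 17 of the 34 members, where 10.6% of all genes tested had one. The highest were Col12a1 at 12.5 times and Col19a1 at 12.1 times the trend, followed by Col1a1 (8.22), Col3a1 (7.95), Col14a1 (7.03), Col1a2 (5.38), Col11a1 (5.14) and Col22a1 (3.87). Col4a1 and Col4a2 were at 1.40 and 1.44 times, Col5a3 at 1.15 and Col15a1 at 1.04. Below the trend were Col18a1 (0.833), Col26a1 (0.720), Col4a3 (0.477), Col28a1 (0.380) and Col23a1 (0.317), and for Col13a1, which had 14 to 24 counts per library, no variance beyond counting error was estimated. The count was 15 to 18 whichever mouse was left out, where 1715 to 1784 of all genes reached it (1757 with all mice). With edgeR it was 18 members, and the share over all genes is not given for edgeR. With 1 condition and 1 muscle sample per mouse, variation between animals and variation from handling of a sample cannot be told apart. The methods state that the gastrocnemius was taken whole.

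**Figure D5:**
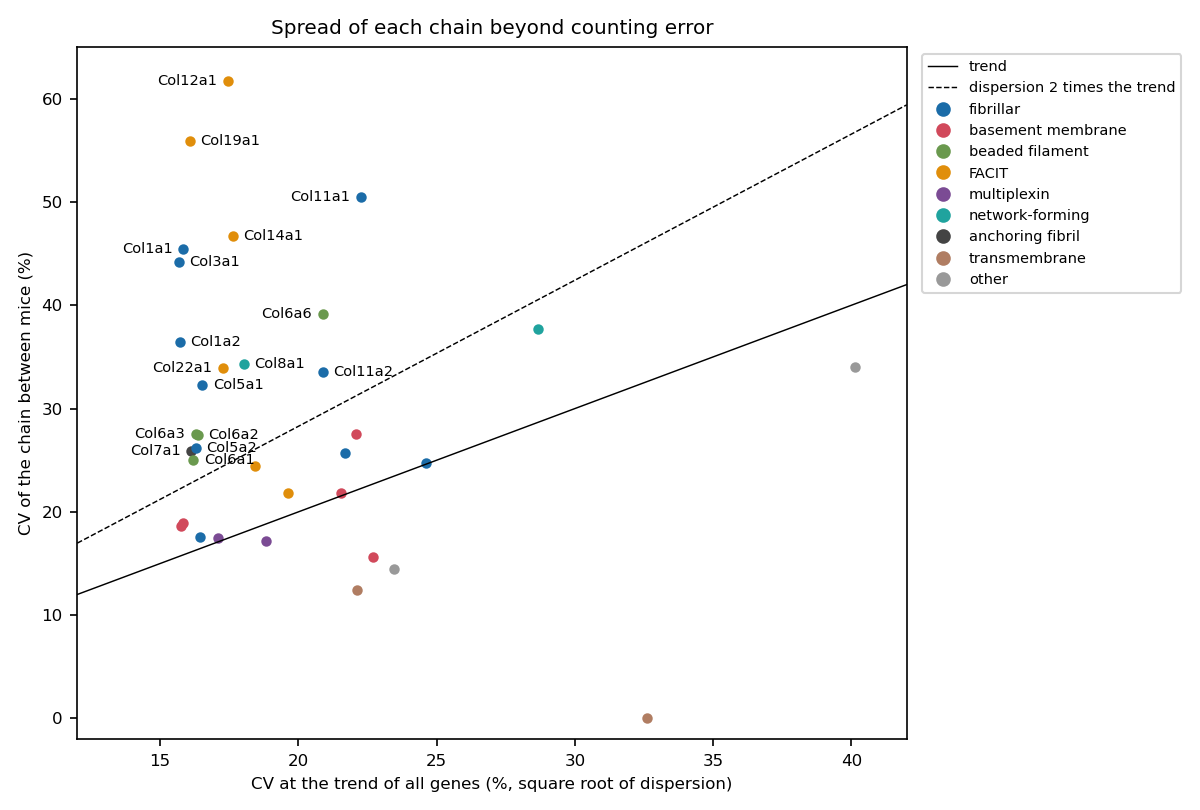
Coefficient of variation between mice beyond counting error (%, square root of the DESeq2 dispersion) of 34 chains against that at the trend of all genes of the same mean, colored by class. The 17 named chains lie at or above 2 times the trend dispersion (dashed line), with Col12a1 and Col19a1 farthest above it, while Col4a1 and Col4a2 lie at 1.40 and 1.44 times the trend (solid line).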

How the data were processed

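RNA was extracted from frozen muscle, poly-adenylated RNA was made into libraries and these were sequenced on an Illumina NextSeq. Per the methods, the authors aligned the reads with STAR (mouse build GRCm38), obtained counts per gene from summarizeOverlaps and analyzed them with DESeq2; the annotation release, strand setting and treatment of multi-mapping reads are not given in the sources used here. The deposited signal is a normalized count, that is, a read count divided by 1 size factor per library, although the table is named as counts, because 100% of nonzero values were whole multiples of the value of 1 read within 0.01 of a read. The design had taken the deposited values as normalized, and limma was used on them as planned. Recovered totals were 23985356 to 33012497 counts per library, and counting error weighs most on chains with few counts. Reads carry no molecular identifiers, so limits from a count of 0 (3 counts) cover counting error only. Of 55487 identifiers, 55227 were found in GENCODE M21, which gave symbols and exon lengths.

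The 8 samples form 1 group, each from 1 mouse as far as the labels say. Genes whose mean reached 10 normalized counts (16513) were regressed on log2(normalized count + 1) of Col1a1, Col4a2 or Col19a1 with limma 3.58.1, with Benjamini-Hochberg adjustment over all genes. Slopes are on the log2(value + 1) scale and understate changes of low genes. Dispersions were taken from DESeq2 1.42.0 on recovered counts. Alternatives were edgeR 4.0.16, DESeq2, TMM factors, library totals, a pseudocount of 5, no filter, the longest transcript as length, a fit with GC content and length trends taken out, and leaving out each mouse. Scripts were tested on simulated data with planted slopes on Col1a1. At an adjusted p of 0.05, 8.61% of DESeq2 calls were false, beside 2.96% in limma and 2.49% in edgeR. The simulated dispersion was 0.02, below that of chains such as Col3a1 (0.196). The members, classes and gene lists were chosen with earlier results of these data known, and the fit on Col19a1 was added after its spread was seen. Every member is named, those below the mean of 10 by their counts, and outside the family the 3 genes with the smallest p-values of a fit and genes of the lists. Of the genes outside the family so chosen with Col1a1 (Mfap4, Mfap3l and Top2a) and Col4a2 (Gm42674, S100a4 and Ugdh), none had an adjusted p under 0.05. R 4.3.3, Python 3.11.15, numpy 2.4.6, pandas 2.3.3 and matplotlib 3.10.9 were used. Libraries of other treatments and human samples were not analysed here.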

Additional observations from a re-analysis of the deposited data

Results flagged for a closer look

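Of 52 values (34 chains, 9 class shares and 9 partner ratios) checked for a mouse far from the other 7, 2 stood out, where chance alone would give about 2.6. For Col7a1, the gap of mouse 8 (1399 normalized counts) to the next mouse (831) was 0.767 of the whole range, above the critical value of 0.53 for 8 samples. For the share of the anchoring fibril class, which holds only Col7a1, the gap of mouse 8 (8.18%) to the next (4.64%) was 0.611 of the range. Both values come from one gene in one library and are not independent of each other.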

How the results depend on the processing

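No paired analysis was possible because all 8 libraries belong to the same group, so replicate numbers pair no samples. Under library totals the slope on Col1a1 was -0.00192 for Col4a1 and -0.0378 for Col28a1, and the slope on Col4a2 was 0.22 for Col20a1, -0.0437 for Col13a1 and -0.00959 for Col4a3, each on the other side of 0 from the value under the deposited scaling, while the median slope of all genes moved to -0.09 and 0.18. Leaving out each mouse gave slopes on Col1a1 of -0.44 to 0.27 for Col19a1, -0.0746 to 0.30 for Col24a1, -0.0312 to 0.31 for Col4a1, -0.38 to 0.31 for Col27a1, -0.0728 to 0.0867 for Col23a1, -0.00242 to 0.14 for Col28a1 and -0.65 to 0.45 for Col22a1, and on Col4a2 of -0.84 to 1.38 for Col4a5, -1.18 to 0.49 for Col6a6, -0.25 to 1.09 for Col13a1 and -1.80 to 0.60 for Col22a1. The number of genes called was 0 in each limma and edgeR fit on Col1a1; DESeq2 called 5 on Col1a1 and 275 on Col4a2, and leaving out a mouse gave 0 to 73 on Col4a2. Members under the unadjusted threshold with Col4a2 were 11, against 3 with GC content and length trends removed (all genes, 9.29%) and 2 to 13 with a mouse left out, where 2 was the number without mouse 8 (all genes, 7.36%), both at the background. With Col19a1 they were 0 to 6 with a mouse left out. All genes under the threshold in that fit numbered 1253 with all mice, 790.0 without mouse 3, 797 without mouse 4 and 2146 without mouse 5. Under library totals they numbered 3198 (19.4%). With the longest transcript as length the fibrillar share was 48.6% and the basement membrane share 20.3%, and the ratios were 0.570 for Col1a1/Col1a2, 0.819 for Col4a2/Col4a1, 0.603 for Col5a1/Col5a2, 1.52 for Col6a1/Col6a2, 6.19 for Col8a1/Col8a2 and 0.580 for Col12a1/Col14a1. Without division by length the shares were 11.1% for beaded filament, 0.528% for transmembrane and 0.349% for other chains. The cause of these changes was not tested, except that the length alternatives change only the divisor. With 8 mice, 10 of the 44 chains too low to test and 1 condition, relations between chains are limited to these libraries.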
